A study of Mus musculus with 15 samples.

Results

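Fibroblast growth factor (FGF) signalling through the kinase ERK was described here through 8 genes, which were chosen by symbol: Fgf4, Fgfbp1, Fgfr1, Dusp6, Spry2, Spry4, Etv4 and Etv5. All 8 were found in both expression tables, which list 24819 genes, and all 8 were among the 12249 genes tested. The RNA came from the mouse embryonic stem cell line E14, grown on gelatin in medium that held serum and leukemia inhibitory factor. The knockdown cells were transfected with siRNA to 1 of 4 genes for large-subunit ribosomal proteins, Rpl11, Rpl14, Rpl18 and Rpl23 (groups siRpl11, siRpl14, siRpl18 and siRpl23), and the controls with non-targeting siRNA (siNT). The labels name no other genotype or agent, and all groups come from the same line. The titles give 48 h, whereas the treatment protocol gives harvest after 3 days, and which of them applies was not settled. Every group (5 in all) was represented by 3 libraries. Libraries numbered 1 and 2 shared 1 table and entered all main tests (n = 2 per group), and the other library of each group, called the third below, was in a second table, normalized separately.

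In mouse embryonic stem cells FGF4 is the main FGF made by the cells themselves. It binds FGF receptors such as FGFR1, which act through RAS, RAF and MEK on ERK, and this signal primes the cells to leave naive pluripotency. ERK activity switches on its own brakes, among them the phosphatase DUSP6 and the Sprouty proteins, together with the ETS transcription factors ETV4 and ETV5, so the RNA of these genes is widely used as a readout of the pathway. FGFBP1 is a secreted carrier that releases FGFs from the extracellular matrix.

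Promoter windows (250 bases before to 50 after an annotated start, RefSeq, build GRCm38.p6) were read for 5 of the 8 members. The expression values were made on another build, mm9, so these windows serve for sequence only. Shown are the windows of Fgf4, which fell in every knockdown, of Fgfbp1, which rose most, and of Spry2, the one member searched with a match to the ETS motif. They lie at chr7:144861136-144861435 on the plus strand (Fgf4), at chr5:43981750-43982049 on the minus strand (Fgfbp1) and at chr14:105896770-105897069 on the minus strand (Spry2). Capitals mark every match, on either strand, to the ETS motif CCGGAA, the AP-1 motif TGANTCA, the GC box GGGCGG or the TATA box TATAAA.
Fgf4: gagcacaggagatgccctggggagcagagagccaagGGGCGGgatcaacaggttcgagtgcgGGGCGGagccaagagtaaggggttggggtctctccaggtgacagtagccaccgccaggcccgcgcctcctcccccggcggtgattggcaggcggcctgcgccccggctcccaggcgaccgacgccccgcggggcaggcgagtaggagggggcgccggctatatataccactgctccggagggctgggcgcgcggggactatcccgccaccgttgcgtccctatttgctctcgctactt
Fgfbp1: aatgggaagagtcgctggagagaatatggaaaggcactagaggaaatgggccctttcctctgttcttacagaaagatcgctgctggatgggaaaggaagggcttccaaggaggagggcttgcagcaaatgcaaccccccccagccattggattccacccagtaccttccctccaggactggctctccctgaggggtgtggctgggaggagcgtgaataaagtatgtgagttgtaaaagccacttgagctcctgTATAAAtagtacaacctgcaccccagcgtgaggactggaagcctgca
Spry2: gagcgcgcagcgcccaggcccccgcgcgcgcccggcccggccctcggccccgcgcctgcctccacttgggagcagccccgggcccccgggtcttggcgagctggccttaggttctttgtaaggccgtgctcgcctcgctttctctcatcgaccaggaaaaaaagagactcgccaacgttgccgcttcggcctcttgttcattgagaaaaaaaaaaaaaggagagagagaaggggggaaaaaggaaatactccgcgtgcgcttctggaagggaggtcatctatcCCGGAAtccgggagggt
The Fgf4 window held 2 GC boxes, the Fgfbp1 window 1 TATA box and the Spry2 window 1 ETS match. Of all 32851 promoter windows in the same set, 35.7% held a GC box, 13.6% a TATA box, 14.9% an ETS match and 7.81% an AP-1 match. The Dusp6 window held no match, and of 2 Etv5 windows 1 held 3 GC boxes and the other no match. A match describes letters in the window and is no evidence of binding.

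The deposited unit is FPKM (fragments per kilobase, scaled to library size), which is scaled by length, so levels of different genes can be set side by side. Differences are given on the log2(FPKM + 1) scale as estimate ± SE from limma, with Benjamini-Hochberg adjusted p over all genes tested and a threshold of 0.05; this scale understates changes of genes with low FPKM. FPKM means are ± SD with n = 2. The files give no read totals, so the depth is unknown; with siNT replicate 1 or the third siNT library set to 1, relative depth ran from 0.698 to 1.39 over the first table and 1.04 to 1.25 over the knockdowns of the second. Nothing in the labels ties replicates to separate cultures, and the spread that p-values rest on may thus be technical. Each targeted gene was reduced in its own knockdown, to 24.0% (Rpl11), 51.6% (Rpl14), 32.6% (Rpl18) and 36.3% (Rpl23) of siNT in the first table. All 7 embryonic stem cell markers checked were expressed in every group, with a summed level of 5831 to 6201 FPKM in siRpl11 and 4706 to 5065 FPKM in the other knockdowns, against 6762 to 7166 FPKM in siNT (first table). In the second table the sum was 6462 FPKM in siRpl11 and 5531 to 5834 FPKM in the other knockdowns, against 6388 FPKM in siNT. Dppa5a made up most of these sums, at 3525, 3834 and 3554 FPKM in siRpl11, against 4048, 4350 and 3453 in siNT. Of the 7, 3 rose and 3 fell in siRpl11, and 1 rose and 5 fell in each other knockdown. Of all genes tested, 27.3% rose and 43.6% fell in siRpl11. In the other knockdowns 32.8% to 34.9% rose and 29.5% to 34.7% fell. Nanog was at 189, 195 and 123 FPKM in siRpl11, against 431, 446 and 293 FPKM in siNT, and Esrrb and Zfp42 were also below siNT there. Pou5f1 was at 1043, 1110 and 1490 FPKM in siRpl11, against 919, 977 and 1283 in siNT. Within each table Sox2 and Utf1 were above siNT in siRpl11 too. The fibroblast markers Dcn and Lum were at 0 in all 15 libraries, and Col1a2, Col3a1, Postn and Twist2 were at or under 0.168 FPKM. Col1a1 was at 0.172, 0.156 and 0.0805 FPKM in siRpl11 and 0.746, 0.764 and 0.398 in siRpl14, against 0.408, 0.368 and 0.1015 in siNT. Within each table Col1a1 was above siNT in siRpl18 and siRpl23 too. Of 8 fibroblast markers, 1 (Thy1) was tested, and it fell in every knockdown. In bulk RNA, fewer cells of a kind and less RNA per cell cannot be told apart.

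Across the 4 knockdowns, the ligand Fgf4 and the brake Spry4 fell, whereas the carrier Fgfbp1, the brakes Dusp6 and Spry2 and the transcription factor Etv5 rose. The receptor Fgfr1 rose in siRpl14, siRpl18 and siRpl23. In siRpl11, 4 of the 8 members rose and 3 fell (Fgf4, Spry4 and Etv4, whose call did not hold under all alternatives), where 27.3% of all genes tested rose and 43.6% fell. In siRpl14, 5 rose and 2 fell, against 33.3% and 29.5% of all genes. The same counts, 5 and 2, were found in siRpl18 (32.8% and 34.7% of all genes) and in siRpl23 (34.9% and 30.8%). In either direction, 70.9% of all genes were called in siRpl11, 62.8% in siRpl14, 67.6% in siRpl18 and 65.7% in siRpl23, so a call alone says little of a member. The 4 comparisons share the same 2 siNT libraries.

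**Figure D1:**
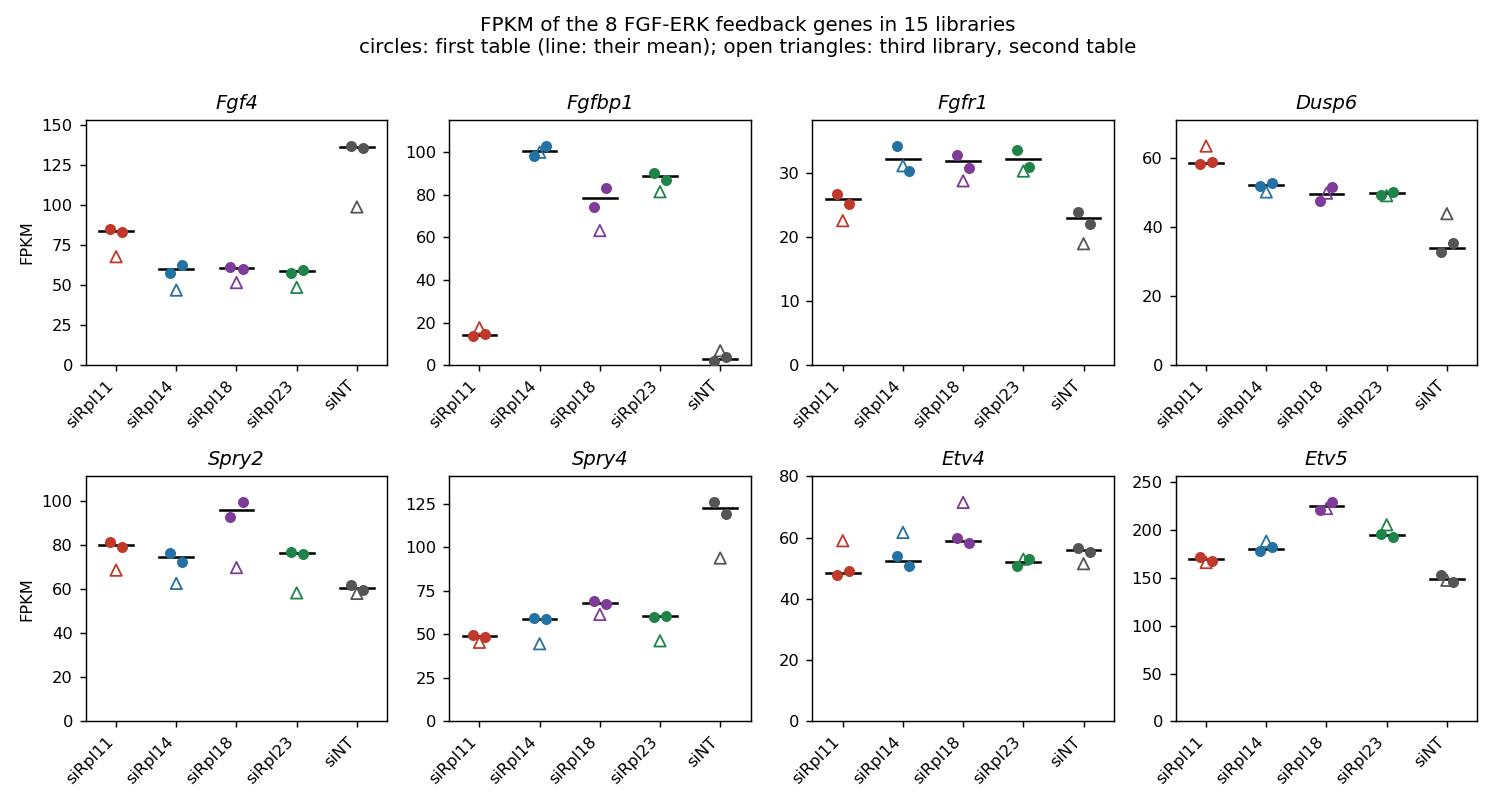
FPKM (vertical axes) of the 8 genes in each of the 15 libraries, by group (horizontal axes). Circles are replicates 1 and 2 of the first table with a line at their mean, and open triangles are the third libraries of the separately normalized second table. Fgf4 and Spry4 sit lower in every knockdown than in siNT within each table, and Fgfbp1 sits at 63.2 FPKM or more in siRpl14, siRpl18 and siRpl23 and at 17.6 FPKM or less in siRpl11 and siNT.

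Fgf4, the ligand, was at 85.2, 83.0 and 67.8 FPKM in siRpl11 (replicates 1 and 2, then the third library, an order kept below). It was at 57.7, 62.4 and 46.9 FPKM in siRpl14, at 61.4, 60.1 and 51.6 in siRpl18 and at 57.8, 59.7 and 48.6 in siRpl23, against 137, 136 and 98.9 in siNT. Within each table every knockdown library was below siNT, with no overlap, and siRpl11 lay between siNT and the other knockdowns. Fgf4 fell by 0.69 ± 0.045 in siRpl11 (limma adjusted p = 6.23e-07), by 1.17 ± 0.045 in siRpl14 (adjusted p = 2.23e-08), by 1.15 ± 0.045 in siRpl18 (adjusted p = 1.81e-08) and by 1.20 ± 0.045 in siRpl23 (adjusted p = 1.5e-08). Its level was 61.8% of siNT in siRpl11 and 43.1% to 44.6% of siNT in the other knockdowns. By level, Fgf4 ranked 5 of the 8 members in siRpl23 and 2 in siNT, after Etv5.

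Fgfbp1, the FGF carrier, was the member that moved most. It was at 13.8, 14.6 and 17.6 FPKM in siRpl11 and at 98.4, 103 and 100.01 in siRpl14. It was at 74.2, 83.1 and 63.2 FPKM in siRpl18 and at 90.5, 87.0 and 81.4 in siRpl23, against 2.07, 3.90 and 6.78 in siNT. No knockdown library overlapped with siNT, and siRpl11 was far below the other 3 knockdowns. The difference from siNT was 1.97 ± 0.16 in siRpl11 (adjusted p = 2.95e-06), 4.71 ± 0.16 in siRpl14 (adjusted p = 1.06e-08), 4.36 ± 0.16 in siRpl18 (adjusted p = 1.34e-08) and 4.53 ± 0.16 in siRpl23 (adjusted p = 1.11e-08). Of all 12249 genes it ranked 1 from the highest in siRpl14 and in siRpl23, 4 in siRpl18 and 25 in siRpl11. Because its siNT level is low and differed between the 2 siNT libraries, the size of the ratio is uncertain: the siRpl11 difference was 1.63 without siNT replicate 1 and 2.31 without siNT replicate 2. FPKM was 33.7 times siNT in siRpl14 in the first table and 14.8 times in the second.

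Markers of other cell types differed between the same groups. The counts below stand beside 27.3% of all genes higher and 43.6% lower in siRpl11, and 33.3% and 29.5% in siRpl14. For siRpl18 these shares were 32.8% and 34.7%, and for siRpl23 34.9% and 30.8%. Of 7 trophectoderm markers (6 tested), 5 rose and 0 fell in siRpl14, siRpl18 and siRpl23, whereas 1 rose and 3 fell in siRpl11. Cdx2, Gata3 and Krt7 were under 1 FPKM in both first-table siNT libraries and passed the filter through knockdown libraries. Their rises were thus in part selected and support nothing. The summed level of the 7 trophectoderm markers in the first table was 8.59 to 9.81 FPKM in siRpl11, 50.9 to 53.9 in siRpl14, 29.3 to 31.5 in siRpl18 and 46.3 to 48.8 in siRpl23, against 12.2 to 13.2 in siNT. Cdx2, a defining trophectoderm factor, was at 1.54, 2.12 and 1.98 FPKM in siRpl14, against 0.0710, 0.0670 and 0.0487 FPKM in siNT. Elf5, which was not tested, was at 0 in all libraries of siRpl14 and siRpl23, against 0.0302, 0 and 0 FPKM in siNT. The summed level of 4 neuroectoderm markers was 23.5 to 24.5 FPKM in siRpl11, 42.7 to 43.9 in siRpl14, 50.7 to 55.1 in siRpl18 and 45.9 to 51.5 in siRpl23, against 7.90 to 8.01 in siNT, and 2 of the 4 rose in each knockdown. Neurod1 made up most of the sum in each knockdown. It was at 41.2, 46.3 and 37.95 FPKM in siRpl18, against 2.05, 2.39 and 0.983 in siNT. Sox1 was at 2.66, 2.01 and 3.01 FPKM in siRpl18, against 2.39, 1.83 and 2.73 in siNT. Pax6 was at 4.95, 6.11 and 4.195 FPKM in siRpl11, against 1.38, 1.52 and 1.455 in siNT. In siRpl18 it was at 1.52, 1.79 and 1.27 FPKM. Of 8 primitive endoderm markers (6 tested), 3 rose in siRpl11, 4 in siRpl14 and 5 each in siRpl18 and siRpl23, and 1 fell in each. Gata4, Gata6, Foxa2 and Dab2 were under 1 FPKM in both first-table siNT libraries and passed the filter through knockdown libraries. Their rises were thus in part selected and support nothing. The summed level of the 8 primitive endoderm markers was 80.7 to 82.5 FPKM in siRpl11, 130 to 137 in siRpl14, 109 to 115 in siRpl18 and 123 to 128 in siRpl23, against 81.9 to 82.0 in siNT. Most of this sum was Sparc (118.5, 125 and 141 FPKM in siRpl14, against 69.1, 69.65 and 94.5 in siNT). Gata4, Gata6 and Sox17 were no higher than 2.439 FPKM in any library. Gata4 was at 2.32, 1.895 and 1.87 FPKM in siRpl14, against 0.735, 0.712 and 0.55 in siNT. Lama1 was at 5.86, 6.14 and 4.115 FPKM in siRpl14, against 9.93, 9.38 and 5.97 in siNT. The part of these markers in the Fgfbp1 difference was not tested.

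Fgfr1, the receptor, was at 26.7, 25.2 and 22.5 FPKM in siRpl11 and at 34.2, 30.2 and 31.1 in siRpl14. It was at 32.8, 30.8 and 28.8 FPKM in siRpl18 and at 33.6, 30.9 and 30.3 in siRpl23, against 23.9, 22.1 and 18.9 in siNT. Within each table all knockdown libraries were above siNT. The rise was 0.47 ± 0.071 in siRpl14 (adjusted p = 0.000243), 0.45 ± 0.071 in siRpl18 (adjusted p = 0.00027) and 0.47 ± 0.071 in siRpl23 (adjusted p = 0.000219). In siRpl11 the difference was 0.17 ± 0.071 and missed the threshold (adjusted p = 0.0523). It passed without siNT replicate 1 (0.22), without either siRpl14 library, with only siRpl11 and siNT in the fit, after quantile normalization (0.21), after median-ratio scaling (0.30) and with all 15 libraries (0.19). In siRpl11 the median of all genes was -0.11, and both scalings moved it to about 0 (0.01 each).

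The feedback inhibitors did not move in 1 direction. Dusp6, a phosphatase that removes the activating phosphates of ERK, was at 58.5, 59.1 and 63.6 FPKM in siRpl11, 52.0, 52.8 and 50.3 in siRpl14, 47.8, 51.7 and 49.9 in siRpl18 and 49.5, 50.4 and 49.2 in siRpl23, against 33.0, 35.3 and 44.0 in siNT. Every knockdown library was above the siNT library or libraries of its table, and siRpl11 was highest. Dusp6 rose by 0.77 ± 0.049 in siRpl11 (adjusted p = 5.5e-07), 0.60 ± 0.049 in siRpl14 (adjusted p = 3.52e-06), 0.53 ± 0.049 in siRpl18 (adjusted p = 6.92e-06) and 0.54 ± 0.049 in siRpl23 (adjusted p = 6.89e-06). The third libraries gave smaller differences in siRpl14 (0.19), siRpl18 (0.18) and siRpl23 (0.16) than in siRpl11 (0.52).

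Spry4, which restrains RAS and RAF signalling, went the other way. It was at 49.4, 48.3 and 45.5 FPKM in siRpl11, 59.5, 58.7 and 44.6 in siRpl14, 69.0, 67.2 and 61.5 in siRpl18 and 60.1, 60.5 and 46.3 in siRpl23, against 126, 119 and 93.8 in siNT. Every knockdown library was below the siNT library or libraries of its table. Spry4 fell by 1.31 ± 0.040 in siRpl11 (adjusted p = 9.15e-09), by 1.04 ± 0.040 in siRpl14 (adjusted p = 2.23e-08), by 0.84 ± 0.040 in siRpl18 (adjusted p = 7.16e-08) and by 1.01 ± 0.040 in siRpl23 (adjusted p = 2.16e-08). In the first table its level in siRpl11 was 39.9% of siNT, and in siRpl18 55.6% of siNT.

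Spry2, its relative with the same kind of role, rose in the first table. It was at 81.1, 79.0 and 68.5 FPKM in siRpl11, 76.4, 72.1 and 62.5 in siRpl14, 92.6, 99.2 and 69.7 in siRpl18 and 76.9, 75.8 and 58.2 in siRpl23, against 61.8, 59.5 and 58.0 in siNT. In the first table the knockdown libraries were all above both siNT libraries, and in the second siRpl23 was level with siNT. The rise was 0.39 ± 0.047 in siRpl11 (adjusted p = 3.87e-05), 0.29 ± 0.047 in siRpl14 (adjusted p = 0.000439), 0.65 ± 0.047 in siRpl18 (adjusted p = 1.26e-06) and 0.33 ± 0.047 in siRpl23 (adjusted p = 0.000168). The third libraries gave 0.24 in siRpl11, 0.11 in siRpl14, 0.26 in siRpl18 and 0.01 in siRpl23.

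Etv5 and Etv4, closely related ETS transcription factors that the pathway induces, differed in their response. Etv5 had the highest level of the 8 members in every group of both tables, at 172, 167 and 166 FPKM in siRpl11, 178, 182 and 188 in siRpl14, 220.4, 229 and 222 in siRpl18 and 196, 193 and 205 in siRpl23, against 153, 145 and 148 in siNT. It rose by 0.19 ± 0.041 in siRpl11 (adjusted p = 0.0023), 0.27 ± 0.041 in siRpl14 (adjusted p = 0.000245), 0.59 ± 0.041 in siRpl18 (adjusted p = 9.52e-07) and 0.38 ± 0.041 in siRpl23 (adjusted p = 2.14e-05). No knockdown library overlapped with siNT, and the third libraries gave like sizes (0.17 in siRpl11, 0.35 in siRpl14, 0.59 in siRpl18 and 0.48 in siRpl23).

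Etv4 was at 47.8, 49.1 and 59.0 FPKM in siRpl11, 54.0, 50.9 and 61.7 in siRpl14, 59.8, 58.3 and 71.5 in siRpl18 and 50.8, 53.0 and 53.0 in siRpl23, against 56.6, 55.4 and 51.5 in siNT. The tables disagreed: in the first, siRpl11, siRpl14 and siRpl23 libraries were below siNT, and in the second all 4 knockdowns were above it. The first table gave a call in siRpl11 (-0.21 ± 0.044, adjusted p = 0.00194), which ended after median-ratio scaling (-0.07) and with all 15 libraries (-0.07). In the third libraries the siRpl11 difference was 0.19. Differences of -0.094 ± 0.044 in siRpl14 (adjusted p = 0.0886), 0.074 ± 0.044 in siRpl18 (adjusted p = 0.162) and -0.11 ± 0.044 in siRpl23 (adjusted p = 0.0541) did not pass. The direction for Etv4 is thus unsettled, also in siRpl11, where it is 1 of the 3 members counted as lower. The sign turned to 0.02 in siRpl14 with all 15 libraries and to -0.02 in siRpl18 after quantile normalization. The siRpl14 difference passed as lower after quantile normalization (-0.17). The siRpl23 difference passed without either siRpl14 library and after either scaling (-0.20 and -0.13), and siRpl18 passed as higher with all 15 libraries (0.20).

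**Figure D2:**
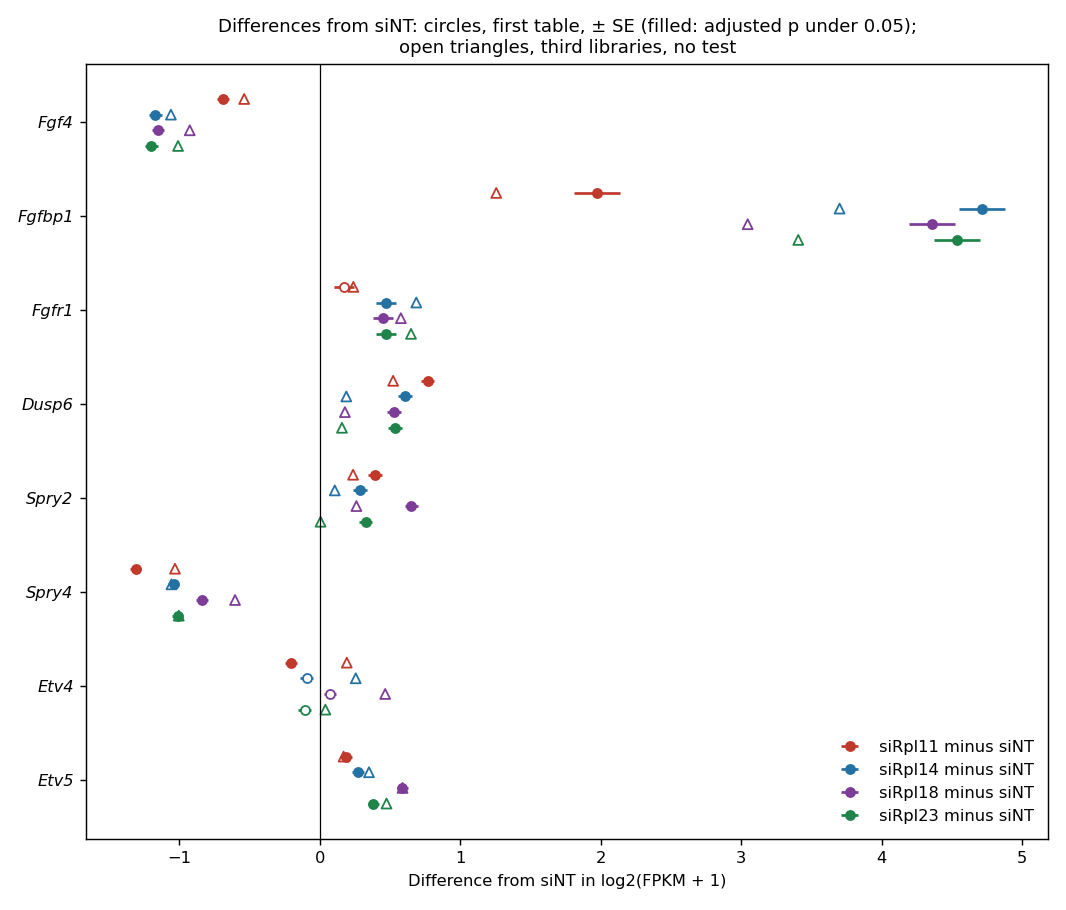
Difference of each knockdown from siNT in log2(FPKM + 1) (horizontal axis) for the 8 genes (vertical axis). Circles are estimates from the first table with SE, filled where the adjusted p was under 0.05, and open triangles are the third libraries, with no test; Dusp6 lies right of 0 and Spry4 left of 0 in all 4 knockdowns, and Etv4 lies left of 0 in the first table and right of 0 in the second in siRpl11, siRpl14 and siRpl23.

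The difference from siNT was also compared between the tables, with the 1 second-table library of each group assumed to vary like those of the first. The p-values thus take all their spread from the first table and do not measure the spread between experiments. Of all genes, 5.74% differed between tables in siRpl11, 9.23% in siRpl14, 7.83% in siRpl18 and 12.0% in siRpl23, and of the 8 members 2, 2, 4 and 3 did. Etv4 in siRpl11 (second minus first, 0.40, adjusted p = 0.0221) and Dusp6 in siRpl14 (-0.42, adjusted p = 0.0176) were among them. Fgf4 and Fgfr1 were not called as different between the tables in any knockdown, and Etv5 was not either.

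The next comparison asked whether the knockdowns differed from each other. siNT levels do not enter these differences, but the siNT libraries share in the estimate of the spread. Over the 4 knockdowns, all 8 members passed limma's moderated F test, with adjusted p between 1.28e-06 (Fgfbp1) and 0.00913 (Fgfr1), as did 60.8% of all genes. Against the mean of the other 3 knockdowns, siRpl11 had 2 members higher (18.4% of all genes were higher) and 5 lower (44.2% were lower). Fgf4 was higher in siRpl11 by 0.48 ± 0.037 (adjusted p = 1.92e-06) and Dusp6 by 0.21 ± 0.040 (adjusted p = 0.00111). Fgfbp1 was lower in siRpl11 (-2.56 ± 0.13, adjusted p = 1.33e-07), as were Spry4 (-0.35 ± 0.033, adjusted p = 8.93e-06), Fgfr1 (-0.29 ± 0.058, adjusted p = 0.00134), Etv5 (-0.23 ± 0.034, adjusted p = 0.000199) and Etv4 (-0.16 ± 0.036, adjusted p = 0.0028). For Spry2 the difference was -0.03 ± 0.04 (adjusted p = 0.544), with a 95% interval from -0.11 to 0.06. The third libraries had the same sign for 7 members (0.46 for Fgf4, 0.35 for Dusp6, -2.13 for Fgfbp1, -0.14 for Spry4, -0.40 for Fgfr1, -0.30 for Etv5 and -0.06 for Etv4).

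Of all genes, 62.6% were called in either direction in that comparison. The median of all genes tested was -0.12, and median-ratio scaling moved it to 0.01. That scaling ended the Etv4 call (-0.017, adjusted p = 0.715), as did all 15 libraries (-0.13, adjusted p = 0.071), and it made Spry2 higher in siRpl11 (0.12, adjusted p = 0.0152). Among called genes, 29.3% were higher in siRpl11 as deposited, 50.8% after median-ratio scaling and 56.8% after quantile normalization. Against siNT the share higher in siRpl11 was 38.5% as deposited and 50.9% after either scaling.

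All 6 pairs of knockdowns were then compared. Between siRpl11 and each other knockdown, 5 members were called against siRpl14, 8 against siRpl18 and 6 against siRpl23, where 59.2%, 53.4% and 55.4% of all genes were called. Fgfbp1 differed most in these pairs (-2.74 ± 0.16 against siRpl14, -2.39 ± 0.16 against siRpl18 and -2.56 ± 0.16 against siRpl23, largest adjusted p = 1.43e-06). The Dusp6 call against siRpl14 (0.16 ± 0.05, adjusted p = 0.0161) ended without either siRpl11 library and without siRpl14 replicate 1. Fgfr1 was lower in siRpl11 than in siRpl18 (-0.28 ± 0.07, adjusted p = 0.0071), a call that ended without siRpl11 replicate 2 or siRpl18 replicate 1 and after either scaling. The Fgfr1 call against siRpl14 (-0.30 ± 0.07) ended after median-ratio scaling (-0.14), and that against siRpl23 (-0.30 ± 0.07) after either scaling (-0.19 and -0.15). Median-ratio scaling ended the Etv5 call against siRpl23 (-0.036) and made Spry2 higher in siRpl11 than in siRpl14 (0.27) and siRpl23 (0.23). Against siRpl14, Etv4 passed without siRpl14 replicate 2 (-0.15), and Etv5 passed after quantile normalization (-0.092) and with all 15 libraries (-0.12). Among called genes, 28.3% were higher in siRpl11 than in siRpl14, 32.1% than in siRpl18 and 26.4% than in siRpl23 as deposited, and 50.6%, 51.5% and 51.1% after median-ratio scaling. Spry4 in the third libraries was not lower in siRpl11 than in siRpl14 (0.03) or siRpl23 (-0.03), in contrast to the first table (-0.27 ± 0.04 and -0.30 ± 0.04).

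The other 3 knockdowns were closer to each other. Between siRpl18 and siRpl14, 4 members were higher in siRpl18, where 14.3% of all genes were called in either direction. These were Spry2 (0.36 ± 0.05, adjusted p = 0.00193), Etv5 (0.32 ± 0.04, adjusted p = 0.00193), Spry4 (0.20 ± 0.04, adjusted p = 0.0112) and Etv4 (0.17 ± 0.04, adjusted p = 0.0334). All 4 were also higher in siRpl18 in the third libraries (0.15 for Spry2, 0.24 for Etv5, 0.45 for Spry4 and 0.21 for Etv4). Without siRpl14 replicate 2 or siRpl18 replicate 1, 2 members were called, and the Spry4 and Etv4 calls ended. The Etv4 call also ended without either siRpl11 library, without siRpl18 replicate 2, with all 15 libraries and after quantile normalization. Fgfbp1 did not pass (-0.35 ± 0.16, adjusted p = 0.172, 95% interval from -0.72 to 0.01), and passed without siNT replicate 1 (adjusted p = 0.00878) and without siNT replicate 2 (adjusted p = 0.00884).

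Between siRpl23 and siRpl18, Spry2 (-0.32 ± 0.05, adjusted p = 0.00879), Etv5 (-0.21 ± 0.04, adjusted p = 0.0271) and Spry4 (-0.17 ± 0.04, adjusted p = 0.0474) were lower in siRpl23, where 3.51% of all genes were called. The third libraries had the same sign (-0.26 for Spry2, -0.11 for Etv5 and -0.40 for Spry4). These calls were fragile: 0 members were called without siRpl18 replicate 2 or either siRpl23 library, and 1 without siRpl18 replicate 1. The Spry4 call also ended without any 1 of the siRpl11 and siRpl14 libraries, with a pseudocount of 0.1 and with no filter, and an Etv4 difference that had missed (-0.18 ± 0.044, adjusted p = 0.0561) passed after median-ratio scaling (-0.22). Between siRpl23 and siRpl14, 0 members were called, where 0.514% of all genes were. At an unadjusted p under 0.05, limma gave 1 member, Etv5, whose difference was 0.11 ± 0.041 (adjusted p = 0.268). In that pair the 95% intervals were from -0.13 to 0.07 for Fgf4, -0.54 to 0.18 for Fgfbp1, -0.18 to 0.04 for Dusp6 and -0.06 to 0.12 for Spry4. Among called genes, 41.8% were higher in siRpl18 than in siRpl14 as deposited and 59.2% after median-ratio scaling, and for siRpl23 against siRpl18 these shares were 69.5% and 44.5%.

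**Figure D3:**
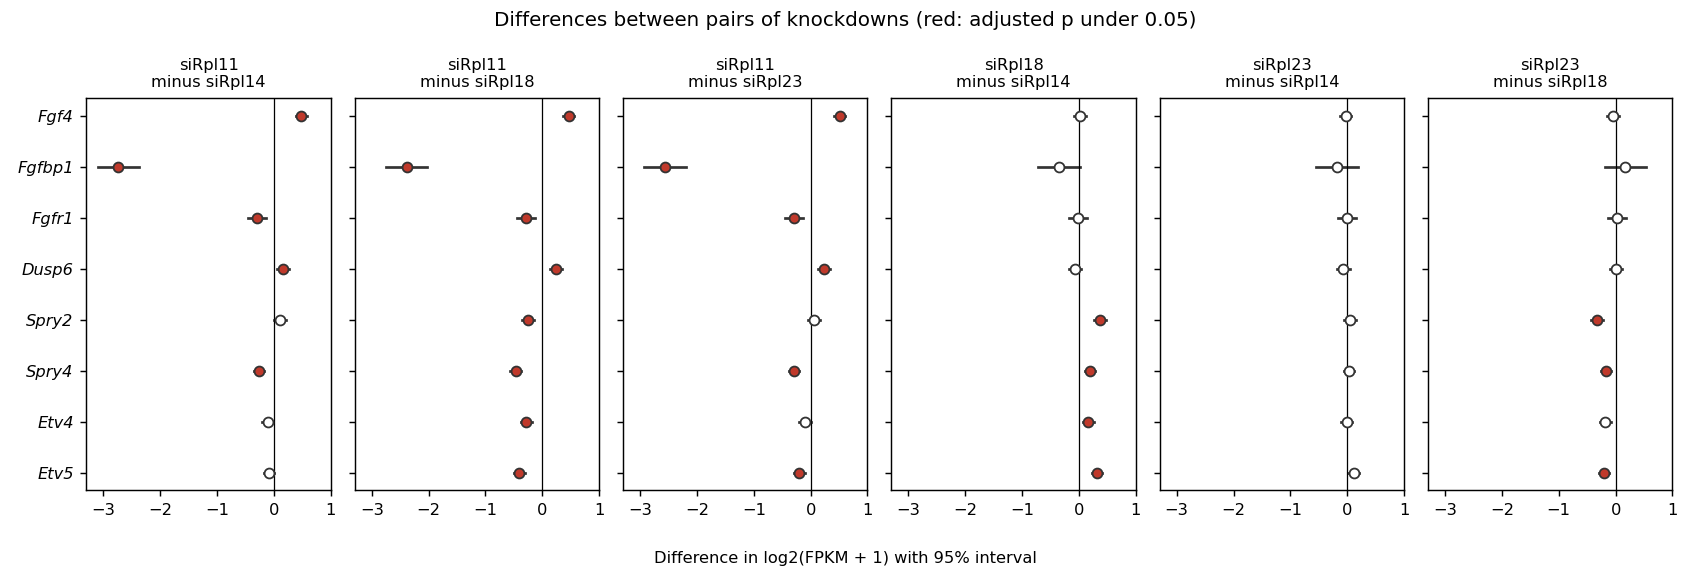
Difference between 2 knockdowns in log2(FPKM + 1) (horizontal axes) with its 95% interval for the 8 genes (vertical axis), in the first table. Red points had an adjusted p under 0.05; the 3 panels with siRpl11 have Fgfbp1 far left of 0 at -2.39 to -2.74, and in the panel of siRpl23 minus siRpl14 no point is red.

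By level across groups of the first table, Fgf4 was lowest in siRpl14, siRpl18 and siRpl23, which were not called apart, followed by siRpl11 and then siNT. Spry4 was lowest in siRpl11 (48.9 ± 0.741 FPKM, SD, n = 2), followed by siRpl14 and siRpl23, which were not called apart, siRpl18 and siNT (123 ± 4.55 FPKM). In the third libraries Spry4 was lowest in siRpl14 (44.6 FPKM, against 45.5 FPKM in siRpl11), and the call between siRpl23 and siRpl18 was lost with most single libraries left out. Dusp6 was highest in siRpl11 (58.8 ± 0.420 FPKM) and lowest in siNT (34.1 ± 1.66 FPKM), with siRpl14, siRpl18 and siRpl23 between them and not called apart. Etv5 was highest in siRpl18 (225 ± 5.99 FPKM), followed by siRpl23 and siRpl14, siRpl11 and siNT (149 ± 5.07 FPKM). Neighbours in this order that were not called apart were siRpl23 and siRpl14, and siRpl14 and siRpl11.

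For each member the 3 genes with the most similar values were found by Pearson correlation on log2(FPKM + 1) over the 10 libraries of the first table, as a description with no test, since the libraries fall into 5 groups. Closest to Fgf4 were Fhod3 (r = 0.993), Usp28 (0.989) and Top2a (0.989). Closest to Fgfbp1 were Cdkn2b (0.997), Cyr61 (0.996) and Calhm2 (0.995). Closest to Spry4 were Dmtn (0.998), Slc38a10 (0.998) and Kdm1b (0.998), and closest to Dusp6 were Eif1b (0.990), Emg1 (0.988) and Eprn (0.988). Fgfr1 was most like Iffo1 (0.992), Rpusd2 (0.984) and Usp24 (0.982), Etv5 most like Cfap43 (0.991), Manbal (0.984) and Foxj1 (0.981), and Spry2 most like Gfra1 (0.987), Pcnt (0.966) and Gadd45a (0.964). Etv4 had no close match, with Drc1 (0.931), Hs3st3b1 (0.921) and Fam120aos (0.919) first. The number of genes with r over 0.95 ranged from 0 for Etv4 and 14 for Spry2 to 349 for Spry4 and 427 for Fgfbp1, so single names carry little.

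The rest of the pathway was read from a list of 89 other genes in 5 roles, of which 88 were in the tables and 71 were tested. In siRpl11, 20 of the 71 rose and 36 fell, with a median of -0.17 beside -0.11 for all genes. In siRpl14, 30 rose and 21 fell (median 0.05, beside 0.02 for all genes), in siRpl18, 32 rose and 27 fell (median 0.07, beside -0.02), and in siRpl23, 32 rose and 20 fell (median 0.07, beside 0.02). Of the 71, 6 were under 1 FPKM in both siNT libraries and passed the filter through knockdown libraries (Fgfr2, Fgfbp3, Dusp2, Ets1, Fosl1 and Fosl2), so their rises were in part selected and support nothing. The counts by role below stand beside 27.3% of all genes higher and 43.6% lower in siRpl11, 33.3% and 29.5% in siRpl14, 32.8% and 34.7% in siRpl18, and 34.9% and 30.8% in siRpl23.

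Among 5 other FGF ligands tested, 2 rose and 3 fell in every knockdown, but not all were the same genes. Fgf15 rose in siRpl11 (0.96 ± 0.07) and fell in siRpl14 (-0.88 ± 0.07), siRpl18 (-0.36 ± 0.07) and siRpl23 (-0.72 ± 0.07). Fgf1 fell in siRpl11 (-0.83 ± 0.11) and rose in siRpl14 (0.39 ± 0.11), siRpl18 (0.92 ± 0.11) and siRpl23 (0.52 ± 0.11). For both genes the third libraries had the same sign in every knockdown (Fgf15 1.06, -1.50, -0.57 and -1.28, Fgf1 -0.28, 0.65, 0.98 and 0.73, for siRpl11, siRpl14, siRpl18 and siRpl23). Fgf17, an FGF8-like ligand, was at 8.35 ± 0.105 FPKM in siRpl11, 9.53 ± 0.437 in siRpl14, 10.3 ± 0.293 in siRpl18 and 10.2 ± 0.406 in siRpl23, against 19.3 ± 0.000990 in siNT (differences -1.12, -0.95, -0.84 and -0.85). Fgf18 rose in all 4. In the first table it was highest in siRpl18, at 4.18 ± 0.126 FPKM, against 1.32 ± 0.123 in siNT (1.16 ± 0.07, limma adjusted p = 4.98e-07). For this gene siRpl18 was not called apart from siRpl11 or siRpl23. The third libraries gave Fgf18 differences of 0.88 in siRpl11, 0.67 in siRpl14, 0.79 in siRpl18 and 0.90 in siRpl23. Fgf5, the ligand that marks exit from naive pluripotency, was not tested, with no first-table library above 0.680 FPKM, and Fgf8 stayed at or under 0.406 FPKM.

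Of 12 other receptors and ligand-binding genes tested, 4 rose and 7 fell in siRpl11, 6 and 4 in siRpl14, 5 and 5 in siRpl18, and 5 and 4 in siRpl23. Fgfbp3, a relative of Fgfbp1, was at 5.89 ± 0.0443 FPKM in siRpl14, 7.08 ± 0.148 in siRpl18 and 6.02 ± 0.0546 in siRpl23, against 0.397 ± 0.176 in siNT. It and Fgfr2 are 2 of the genes that passed the filter through knockdown libraries, so no test is given for Fgfbp3. Gpc4, a cell-surface heparan sulfate proteoglycan, led in siRpl11, at 26.8 ± 3.37 FPKM, against 9.87 ± 0.0341 in siNT (1.35 ± 0.08, adjusted p = 2.4e-07). Gpc3, of the same family, fell in every knockdown, by 0.92 in siRpl11, 0.84 in siRpl14, 1.11 in siRpl18 and 1.07 in siRpl23.

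The 22 signal transducers, from adaptors to kinases, were all tested. In siRpl11, 4 rose and 14 fell (median -0.22, beside -0.11 for all genes), in siRpl14, 6 and 7 (median 0.02), in siRpl18, 6 and 10 (median -0.13), and in siRpl23, 7 and 6 (median 0.04). Araf, a RAF kinase, had the largest first-table rise of this role in siRpl14 (0.70 ± 0.04), siRpl18 (0.67 ± 0.04) and siRpl23 (0.59 ± 0.04). It also rose in siRpl11 (0.42 ± 0.04). Rps6ka2, a kinase that ERK activates, fell most in every knockdown in the first table, to 2.25 ± 0.0329 FPKM in siRpl11 and 3.11 ± 0.133 in siRpl18, against 9.36 ± 0.921 in siNT. The first-table differences were -1.67 in siRpl11, -1.01 in siRpl14, -1.33 in siRpl18 and -1.19 in siRpl23. The third libraries gave -1.35 in siRpl11, -0.46 in siRpl14, -0.69 in siRpl18 and -0.71 in siRpl23. In siRpl14 Mapk3 was slightly lower there (-0.49).

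Of 15 other feedback inhibitors, 6 rose and 3 fell in siRpl11, 7 and 3 in siRpl14, and 9 and 3 in both siRpl18 and siRpl23, with Dusp2 among those that passed the filter through knockdown libraries. In siRpl11 the largest rise was that of Dusp4, a nuclear ERK phosphatase (1.47 ± 0.07, limma adjusted p = 1.1e-07). Dusp4 was at 13.2 ± 1.18 FPKM there, against 4.15 ± 0.352 in siNT. It also rose in siRpl14 (1.095 ± 0.07), siRpl18 (1.64 ± 0.07) and siRpl23 (1.37 ± 0.07). The third libraries gave smaller Dusp4 differences (0.76 in siRpl11, 0.35 in siRpl14, 0.39 in siRpl18 and 0.24 in siRpl23). Dusp2, another nuclear ERK phosphatase, led in the other knockdowns, at 6.96 ± 0.527 FPKM in siRpl14, 8.74 ± 0.416 in siRpl18 and 8.39 ± 0.104 in siRpl23, against 0.693 ± 0.0851 in siNT. Dusp9, a cytoplasmic ERK phosphatase abundant in these cells, fell in all 4, to 34.04 ± 0.536 FPKM in siRpl11, 39.2 ± 0.203 in siRpl14, 30.6 ± 1.37 in siRpl18 and 38.5 ± 0.876 in siRpl23, against 71.8 ± 0.134 in siNT. The third libraries gave the same sign for Dusp9 (-0.93 in siRpl11, -0.64 in siRpl14, -1.01 in siRpl18 and -0.76 in siRpl23).

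Among 17 other ERK-regulated transcription factors and early genes, 4 rose and 9 fell in siRpl11, 9 rose and 4 fell in both siRpl14 and siRpl23, and 10 rose and 6 fell in siRpl18. Of these, Ets1, Fosl1 and Fosl2 passed the filter through knockdown libraries. Fosl1, an AP-1 subunit, was at 1.97 ± 0.0502 FPKM in siRpl11, 6.24 ± 0.629 in siRpl14, 8.14 ± 0.194 in siRpl18 and 8.06 ± 0.320 in siRpl23, against 0.162 ± 0.0620 in siNT. Ier3, an immediate early gene, fell in every knockdown (-1.67 ± 0.13 in siRpl11, -1.26 ± 0.13 in siRpl14, -1.16 ± 0.13 in siRpl18 and -1.36 ± 0.13 in siRpl23; largest adjusted p = 2.51e-05). Members of the list thus moved in both directions in every role.

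**Figure D4:**
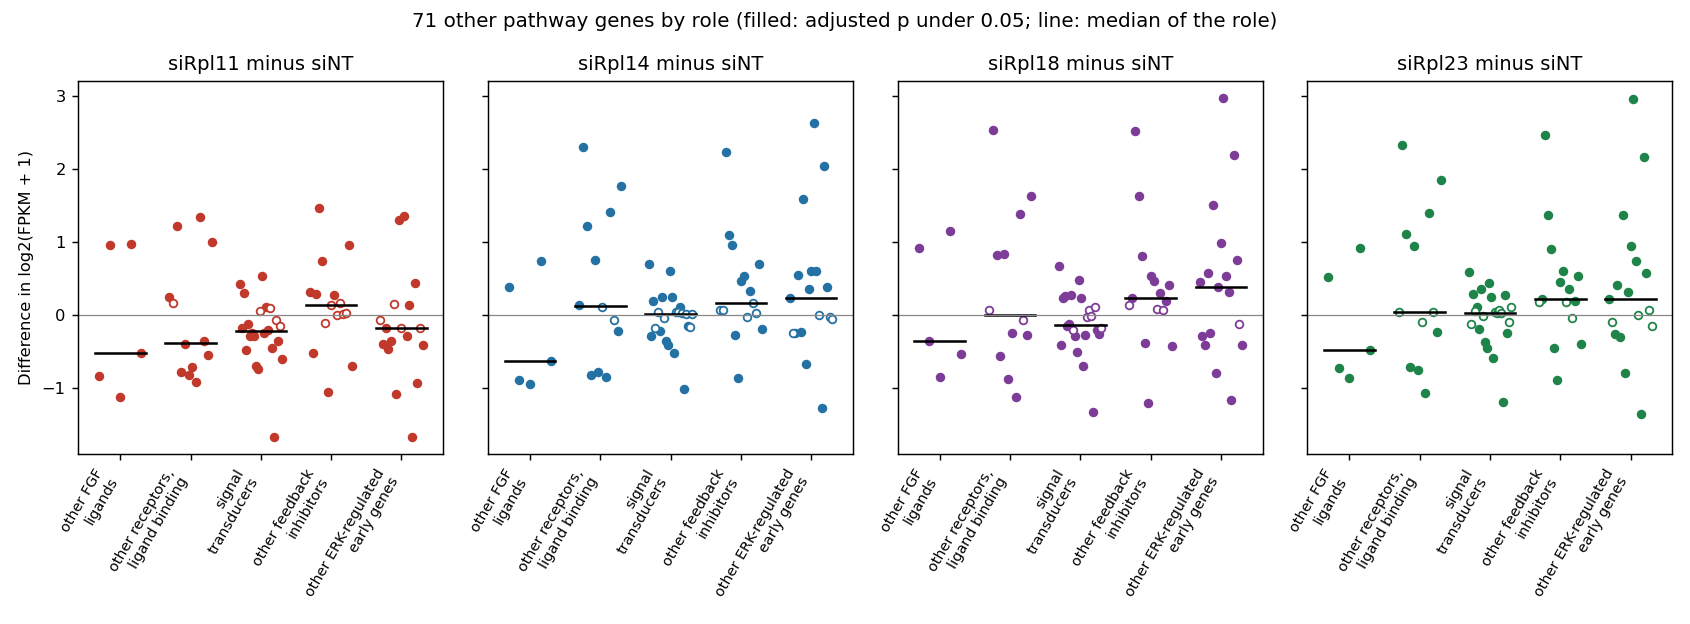
Difference from siNT in log2(FPKM + 1) (vertical axes) for 71 other pathway genes by role (horizontal axes), in siRpl11, siRpl14, siRpl18 and siRpl23. Each point is 1 gene, filled where the adjusted p was under 0.05, and lines are medians of a role. The median of the early genes is -0.18 in siRpl11 and 0.24, 0.38 and 0.23 in the other 3 panels. These medians include Ets1, Fosl1 and Fosl2, which passed the filter through knockdown libraries, so their rises were in part selected.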

How the data were processed

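Per the labels' protocols, 15 mRNA libraries were built with a strand-specific kit. The authors deposited FPKM values by gene, for which the submitters' processing notes name STAR, Cuffnorm and mm9; the sources used here give no versions, annotation or rescaling. The 2 tables were normalized separately, and 2 columns that match no sample were not used. Groups come from the titles or the siRNA label, and the titles of the third libraries carry no replicate number.

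A gene was tested if 2 or more first-table libraries (10 in all) reached 1 FPKM. A model with 1 term per group was fitted to log2(FPKM + 1) with limma 3.58.1 in R 4.3.3 (5 residual degrees of freedom), and the steps were tested on simulated data. Replicates of a group correlated with r of 0.991 to 0.996 across genes, and no pair was counted as a duplicate. Relative depth came from the step that 1 read makes in values of 0.005 to 0.15 FPKM. Alternatives were another pseudocount (0.1), no filter, 2 scalings, a replicate block, all 15 libraries, only the groups compared and each library left out. Named were the 8 members, the called pathway gene with the highest and lowest difference per role and knockdown, and the 3 genes most like each member (1 pathway gene that the rule names is not reported here); Fgf1, Fgf5, Fgf8, Fgf15, Nanog, Cdx2, Elf5 and Thy1 were added after their values were seen. Members and lists were chosen with earlier results of these data known.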

Additional observations from a re-analysis of the deposited data

Results flagged for a closer look

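The knockdown's difference from siNT differed in size between the separately normalized tables for these members (limma, values are second table minus first on the log2 scale; the lone second-table libraries were assumed to vary like the others, so the p-values do not measure the spread between experiments). The Etv4 difference was higher in the second table in siRpl11 (0.40, adjusted p = 0.0221), siRpl14 (0.35, adjusted p = 0.0227) and siRpl18 (0.39, adjusted p = 0.0195). The Dusp6 difference was smaller in siRpl14 (-0.42, adjusted p = 0.0176), siRpl18 (-0.35, adjusted p = 0.037) and siRpl23 (-0.38, adjusted p = 0.0219). So was that of Spry2 in siRpl18 (-0.39, adjusted p = 0.0251) and siRpl23 (-0.32, adjusted p = 0.0337), and that of Fgfbp1 in siRpl18 (-1.31, adjusted p = 0.0259) and siRpl23 (-1.13, adjusted p = 0.0311). Spry4 fell less in siRpl11 (0.28, adjusted p = 0.047). Within a table the comparisons share siNT libraries, so these values are not independent. The table and the third library of each group cannot be told apart.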

How the results depend on the processing

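Every Fgf4, Fgfbp1, Dusp6, Spry2, Spry4 and Etv5 difference from siNT kept its direction and its call under all alternatives, each run with 1 choice changed. Of the member differences from siNT under alternatives, 525 stayed on their side, 15 gained a call, 2 lost it and 2 turned: Etv4 in siRpl14 with all 15 libraries (0.023) and in siRpl18 after quantile normalization (-0.020). Against the mean of the other knockdowns, Spry2 in siRpl11 turned after median-ratio scaling (0.12) and with all 15 libraries (0.019). Between pairs, median-ratio scaling turned siRpl11 against siRpl14 for Etv4 (0.047) and Etv5 (0.074), siRpl11 against siRpl23 for Etv4 (0.060), siRpl18 against siRpl14 for Fgfr1 (0.021), and siRpl23 against siRpl18 for Fgfr1 (-0.018) and Dusp6 (-0.031). Quantile normalization turned Fgf4 in siRpl18 against siRpl14 (-0.00923) and Fgfr1 in siRpl23 against siRpl14 (-0.0035). All 15 libraries turned Fgfr1 (-0.011) and Spry2 (-0.00688) in siRpl23 against siRpl14, and Dusp6 in siRpl23 against siRpl18 (-0.00299). None of these pair differences was called; the cause was not tested. With 1 library left out, siRpl18 against siRpl14 ranged from -0.039 to 0.073 for Fgf4 and -0.10 to 0.068 for Fgfr1, and its called members from 2 to 5. The same ranges for siRpl23 against siRpl14 were -0.086 to 0.026 (Fgf4), -0.084 to 0.087 (Fgfr1), -0.000839 to 0.082 (Spry2) and -0.056 to 0.029 (Etv4). For siRpl23 against siRpl18 they were -0.040 to 0.078 (Fgfr1) and -0.050 to 0.062 (Dusp6), and 0 to 3 members were called. Libraries with the same replicate number did not all deviate together (r of -0.0858 to 0.195 over 10 pairs of groups, 5 of them over 0.1), so the numbers were not taken to pair samples; with a replicate block Fgfr1 in siRpl11 (0.17, adjusted p = 0.00248) and Etv4 in siRpl23 (-0.11, adjusted p = 0.0392) passed against siNT. Between knockdowns the block added calls for Etv4 (adjusted p = 0.0368) and Etv5 (adjusted p = 0.0498) in siRpl11 against siRpl14, and for Etv4 in siRpl23 against siRpl18 (adjusted p = 0.0323).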
